A study of Mus musculus with 15 samples.

Results

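Fos, Fosb, Jun, Junb, Egr1, Ier2, Ier3, Atf3, Nr4a1 and Dusp1 are 10 immediate early genes, chosen by symbol from the 44674 genes of a bulk RNA-seq count table of mouse endothelial and mesenchymal cultures. All 10 were found and all 10 passed the filter on low counts, which kept 19401 genes. The 15 libraries fell into 8 conditions: P0 Emcn+ and P0 Emcn- cells from whole bone marrow cultures (2 libraries each), lung cells (2), Emcn- marrow cells at passages P1, P2 and P3 (2 each) and P4 (1), and marrow mesenchymal stromal cells (BM MSC, 2). The labels give every library as wild type and give no age. By the study's methods, the marrow and lung cells came from tamoxifen-treated Tie2-CreERT2;Rosa26-tdTomato mice, in which the Tek promoter drives the Cre. The P0 marrow and lung cells were sorted from culture as live CD45- tdTomato+ cells, with Emcn (endomucin, a sialomucin of venous and sinusoidal endothelium) splitting the marrow cells. Whether P1 to P4 cells were sorted again at harvest is not stated. Lung cells were the Emcn- fraction by those methods; the label says lung alone. BM MSC came from Osx-Cre;Rosa26-tdTomato mice, whose Cre is driven in osteolineage cells, and were cultured in another medium. P0 was the first culture, and later passages were replated after trypsin and grown to confluency.

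Immediate early genes are transcribed within minutes of a stimulus, from promoters that need no newly made protein, and their short-lived mRNAs fall again soon after. Growth factors, serum, adhesion, shear, stress and tissue dissociation switch them on through MAP kinases, which act on serum response factor and its ETS partners and on CREB bound to cAMP response elements. Most of them encode transcription factors, and some encode brakes on the same signal, such as the phosphatase Dusp1.

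The promoters of 4 members are shown. Fos and Nr4a1 had large differences between cultures, Dusp1 was the member searched that had a full cAMP response element, and Jun had the smallest fold change from P0 Emcn- to P1. They span 250 bases before to 50 bases after the RefSeq start (GRCm38.p6): Fos at chr12:85473640-85473939 on the plus strand, Nr4a1 at chr15:101266596-101266895 on the plus strand, Dusp1 at chr17:26508423-26508722 on the minus strand and Jun at chr4:95052173-95052472 on the minus strand. Each reads 5′ to 3′ along the gene, and capitals mark the motifs found.
Fos: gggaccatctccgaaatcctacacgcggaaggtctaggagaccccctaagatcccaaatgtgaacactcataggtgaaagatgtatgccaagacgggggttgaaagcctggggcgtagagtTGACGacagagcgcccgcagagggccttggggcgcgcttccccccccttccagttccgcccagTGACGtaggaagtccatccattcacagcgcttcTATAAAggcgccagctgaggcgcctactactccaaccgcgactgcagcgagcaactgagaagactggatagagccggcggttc
Nr4a1: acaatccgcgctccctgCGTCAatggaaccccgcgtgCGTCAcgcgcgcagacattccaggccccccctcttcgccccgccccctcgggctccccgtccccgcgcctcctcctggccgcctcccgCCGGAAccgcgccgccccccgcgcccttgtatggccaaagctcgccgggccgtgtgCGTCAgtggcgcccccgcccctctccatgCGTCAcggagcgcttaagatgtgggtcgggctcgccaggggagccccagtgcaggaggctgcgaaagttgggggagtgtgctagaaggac
Dusp1: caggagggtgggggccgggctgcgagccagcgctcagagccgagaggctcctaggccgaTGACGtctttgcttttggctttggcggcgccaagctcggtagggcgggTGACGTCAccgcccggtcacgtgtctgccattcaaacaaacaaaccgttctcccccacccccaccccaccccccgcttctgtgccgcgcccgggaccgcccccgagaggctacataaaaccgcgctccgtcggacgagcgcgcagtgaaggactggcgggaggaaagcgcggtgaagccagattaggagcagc
Jun: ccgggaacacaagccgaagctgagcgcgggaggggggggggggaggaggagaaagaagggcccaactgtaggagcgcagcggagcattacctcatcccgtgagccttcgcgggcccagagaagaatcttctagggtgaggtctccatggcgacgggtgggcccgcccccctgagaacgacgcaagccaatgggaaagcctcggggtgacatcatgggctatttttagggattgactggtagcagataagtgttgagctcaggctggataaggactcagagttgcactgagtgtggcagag

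Searched on both strands, the half-site of the cAMP response element, TGACG, was in 6 of the 8 member windows searched, against 20.8% of all 32851 windows of the same length. The search left out member windows on chromosome 18, where Egr1 lies, and no window of Ier2 was searched. Nr4a1 had 4 half-sites, Dusp1 had 3, Fos had 2, and Fosb, Junb and Atf3 had 1 each. Of those of Dusp1, 2 form a single full element, TGACGTCA, at -143 to -136 from the start, a motif found in 1.79% of windows. In Fos the nearer half-site lay at -66 to -62 and a TATAAA box at -33 to -28. TATAAA was in 2 of the 8 windows, Fos and Junb, against 13.6% of all windows. In Junb it lay at +1 to +6, at the start used here and not before it. The ETS motif CCGGAA was in 1 window, Nr4a1, against 14.9% of all. Neither the AP-1 site TGACTCA (5.2% of all windows) nor the CArG box bound by serum response factor (1.63%) matched in these 8 windows, so the windows of Jun and Ier3 held none of the motifs searched. The CArG boxes of such genes can lie further upstream than the window. A match is a match of letters and no measure of binding.

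Total counts ran from 9914620 (P0 Emcn- replicate 2) to 39718807 per library, and 3 counts are 0.0755 to 0.303 CPM, the count scaled to a common library total. The lowest member count in any library was 13, for Atf3, so every member was counted everywhere. Levels are CPM on the library total, and errors after ± are SDs over 2 libraries. Labels name 4 batches: d (P0 and lung replicate 1), a (P0 and lung replicate 2), b (P1 to P4, replicate 1) and c (P1 to P3 replicate 2 and both BM MSC). Libraries of P0 or lung cells never share a batch with passaged or BM MSC ones, and between those sets the batch cannot be told apart from the condition. The study's reporting summary says that independent cultures came from different animals and that sequencing used independent biological samples, while the labels do not tie a library to a mouse. Checked against 8 endothelial markers (Cdh5, Pecam1, Tek and others), P0 Emcn+ libraries summed to 9939.5 and 11819.8 CPM, and all other libraries, though mostly labelled endothelial, to between 42.0 and 584 CPM. The 7 mesenchymal markers (Pdgfra, Col1a1, Dcn and others) summed to 233 and 296 CPM in P0 Emcn+ cells and to between 4139 and 21123 CPM elsewhere. None of these markers was at 0 in any library. Fewer cells of a type and less RNA per cell cannot be told apart in bulk samples.

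The 10 members together held 1276 to 2481 CPM in the 4 P0 libraries, 137 to 200.1 CPM in the 6 libraries of P1 to P3, 995 CPM in the P4 library, 445 and 634 CPM in BM MSC, and 491 and 1477 CPM in lung cells. Each member was higher in every P0 library than in every P1 to P3 library. The share of all genes with such a gap is not given here. The condition with the highest mean was P0 Emcn- for 5 members (Fos, Junb, Egr1, Ier2, Nr4a1) and P0 Emcn+ for the other five, and the lowest mean was always at P1, P2 or P3. A single test over all 8 conditions called 10 of 10 members, where it called 63.5% of all genes tested (edgeR quasi-likelihood test, adjusted p from 2.73e-06 for Atf3 to 0.00233 for Ier2). The correlation of a member's log2 CPM with the mean of the other members over the 15 libraries ran from 0.72 (Atf3) to 0.96 (Junb), as a description; the points share batches and conditions.

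**Figure D1:**
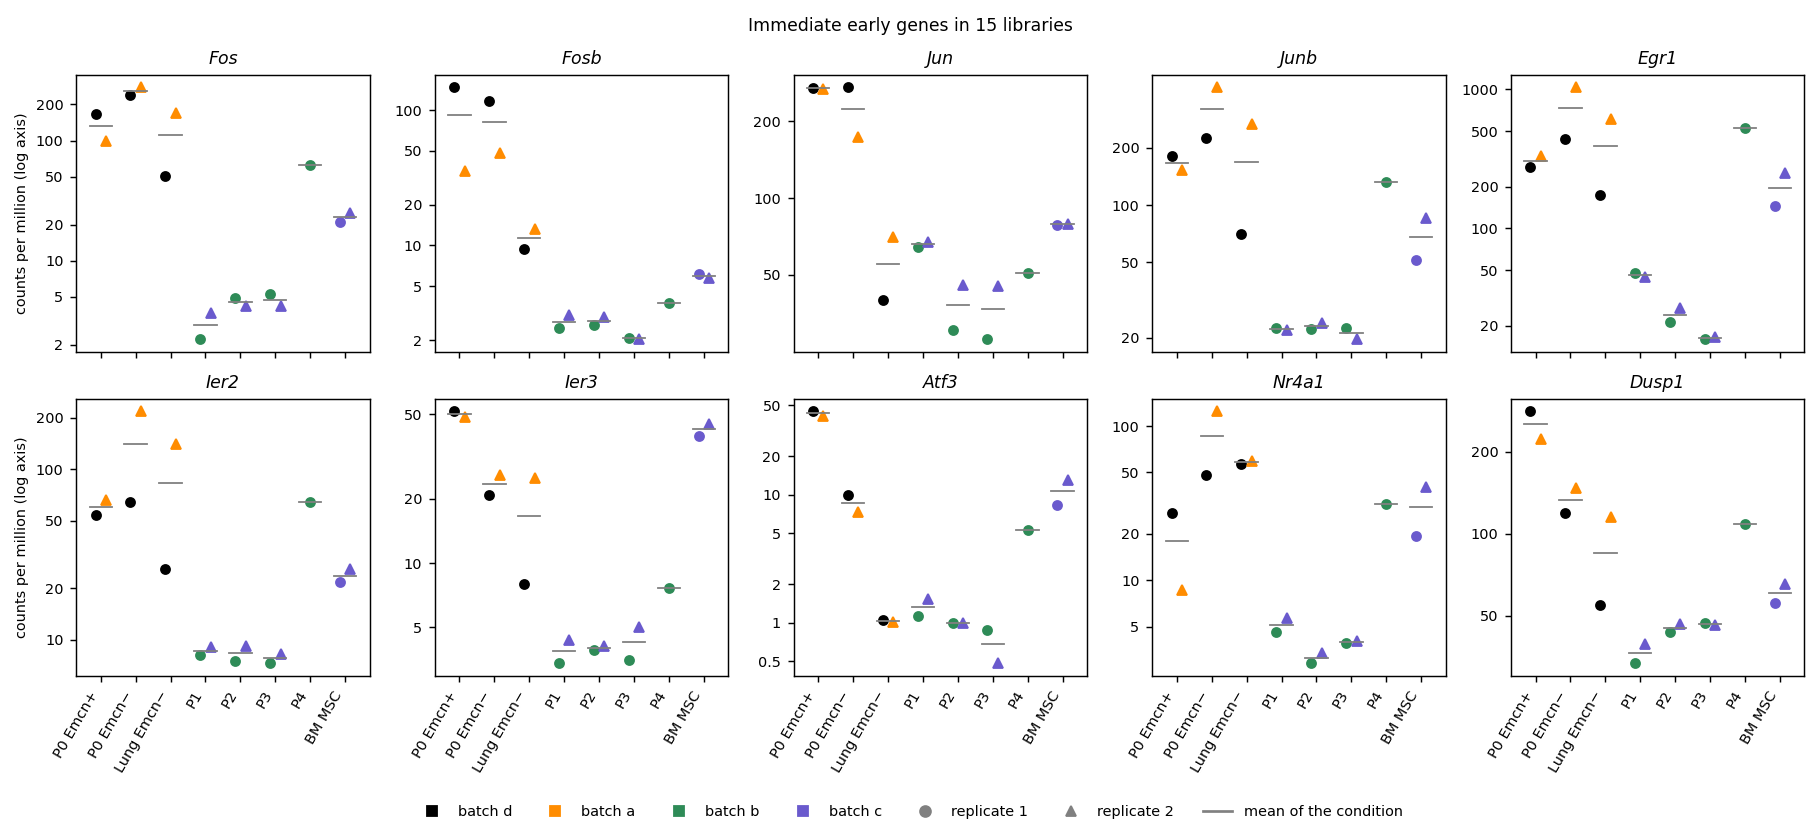
Level of each immediate early gene in each library, in CPM on a log axis that differs between panels, by condition (x axis); circles are replicate 1, triangles replicate 2, colours the batches of the labels, and grey lines the mean of a condition. The 6 points of P1 to P3 lie below all 4 P0 points in all 10 panels, and the single P4 point lies above them for 9 genes and within their range for Jun.

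Fos and Fosb, the Fos partners of the AP-1 transcription factor, differed most at the first passage. Fos (ENSMUSG00000021250, chromosome 12, 85473890 to 85477273, GRCm38) was at 239 and 278 CPM in P0 Emcn- cells and at 167 and 100.1 CPM in P0 Emcn+ cells. At P1 it was at 2.23 and 3.66 CPM, at P2 at 4.87 and 4.18 CPM, and at P3 at 5.28 and 4.18 CPM. So the lowest P0 library was 19.0 times the highest of P1 to P3. The P4 library held 62.6 CPM, BM MSC 20.9 and 25.1 CPM, and lung 50.4 and 171 CPM, and the order of condition means was P0 Emcn-, P0 Emcn+, lung, P4, BM MSC and then P3, P2 and P1, with lung overlapping both P0 Emcn+ and P4, and P3 overlapping P2.

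Fosb (chromosome 7, 19302696 to 19310051), a Fos relative that also comes as a shortened stable form, differed more than Fos did between the libraries of both P0 populations, and less in the other five conditions with 2 libraries. It was at 148 and 35.4 CPM in P0 Emcn+ cells and at 116 and 48.0 CPM in P0 Emcn- cells, the batch d library being the higher in both. It was at 9.50 and 13.3 CPM in lung, 2.04 to 3.05 CPM over P1 to P3, 3.74 CPM at P4 and 6.20 and 5.75 CPM in BM MSC. P4 thus lay above every P1 to P3 library and below both BM MSC libraries.

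Jun and Junb are the partners that Fos proteins pair with, and Jun also pairs with itself. Jun (chromosome 4, 95049034 to 95052222) was at 270.3 and 268 CPM in P0 Emcn+ cells, 273 and 174 CPM in P0 Emcn- cells, and 39.7 and 70.3 CPM in lung. At P1 it was at 64.5 and 67.2 CPM, at P2 at 30.3 and 45.6 CPM, at P3 at 28.0 and 45.2 CPM and at P4 at 51.0 CPM. Its lung level thus lay across those of P1 to P4, and BM MSC stood a little above them at 78.7 and 79.2 CPM.

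Junb (chromosome 8, 84974484 to 84978718), which often dampens Jun on shared targets, was at 227 and 418 CPM in P0 Emcn- cells, 181 and 152 CPM in P0 Emcn+ cells, and 70.7 and 267 CPM in lung. Over P1 to P3 its 6 libraries ran from 19.7 to 23.8 CPM, a span of 1.21-fold and the narrowest of any member. P4 was at 132 CPM and BM MSC at 51.2 and 85.3 CPM, both clear of that span.

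Atf3 (chromosome 1, 191170296 to 191218039), a stress-induced repressor of the ATF/CREB family, had a pattern of its own. It was at 45.0 and 41.7 CPM in P0 Emcn+ cells, at 9.89 and 7.36 CPM in P0 Emcn- cells, and at 1.05 and 1.01 CPM in lung. P1 held 1.13 and 1.54 CPM, P2 0.992 and 0.994 CPM, P3 0.875 and 0.481 CPM, P4 5.28 CPM, and BM MSC 8.28 and 13.03 CPM. Lung and P1 to P3 cells were therefore near the same low level, P4 stood above them, and BM MSC overlapped P0 Emcn-.

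Ier2 (chromosome 8, 84661331 to 84662852), a small nuclear regulator, followed Egr1 and Junb in shape. It was at 64.2 and 219 CPM in P0 Emcn- cells, 54.3 and 65.7 CPM in P0 Emcn+ cells, 25.9 and 140.3 CPM in lung, 7.28 to 9.25 CPM over P1 to P3, 64.1 CPM at P4 and 21.8 and 25.8 CPM in BM MSC. Its P4 level lay within the range of P0 Emcn+. Ier3 (chromosome 17, 35821684 to 35822923), a survival factor induced by NF-kB, was at 51.6 and 48.7 CPM in P0 Emcn+ cells, 20.9 and 25.9 CPM in P0 Emcn- cells, 7.95 and 25.2 CPM in lung, 3.39 to 5.03 CPM over P1 to P3, 7.64 CPM at P4 and 39.6 and 45.1 CPM in BM MSC. BM MSC was thus second in the order of Ier3 means, above P0 Emcn- without overlap.

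Nr4a1 (chromosome 15, 101254269 to 101274795), an orphan nuclear receptor induced by growth factors and calcium, was at 48.4 and 125 CPM in P0 Emcn- cells, 27.4 and 8.70 CPM in P0 Emcn+ cells, and 56.7 and 59.7 CPM in lung. It was at 2.89 to 5.67 CPM over P1 to P3, 31.2 CPM at P4 and 19.3 and 40.2 CPM in BM MSC. Here the gap between P0 and later passages was the narrowest of any member, 1.53-fold from P0 Emcn+ replicate 2 to P1 replicate 2. Dusp1 (chromosome 17, 26505590 to 26562128), the nuclear phosphatase that switches MAP kinases off, was at 282 and 223 CPM in P0 Emcn+ cells, 119 and 147 CPM in P0 Emcn- cells, 54.5 and 115 CPM in lung, 33.4 to 47.0 CPM over P1 to P3, 108 CPM at P4 and 55.5 and 65.4 CPM in BM MSC. Dusp1 also had the smallest range over all libraries, 8.44-fold, against 125-fold for Fos.

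Egr1 (chromosome 18, 34859823 to 34864984), a zinc finger factor of growth and injury responses, was at 437 and 1039 CPM in P0 Emcn- cells, 275 and 332 CPM in P0 Emcn+ cells, and 175 and 614 CPM in lung. It was at 48.1 and 44.5 CPM at P1, 21.2 and 26.8 CPM at P2, and 16.0 and 16.6 CPM at P3, and these 3 passages did not overlap. P4 stood at 529.9 CPM, inside the P0 Emcn- range, and BM MSC at 144 and 249.5 CPM. Per kilobase of merged exons, the mean levels in P0 Emcn- were 165 CPM per kb for Egr1, 140.2 for Junb, 110.0 for Fos, 93.0 for Ier2, 70.0 for Jun, 40.2 for Dusp1, 24.6 for Nr4a1, 20.7 for Ier3, 13.2 for Fosb and 4.01 for Atf3.

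At the first passage of the Emcn- cells, all 10 members fell: 10 of 10 were called lower at P1 than at P0 Emcn- (adjusted p under 0.05 and a log2 fold change beyond 1.5), where the test called 3.07% of all genes lower and 5.77% higher. Their median log2 fold change was -3.77, against 0.02 over all genes tested. Fos went from 259 ± 27.7 CPM to 2.94 ± 1.01 CPM (SD, n = 2 each), a log2 fold change of -6.31 (SE 0.58, edgeR adjusted p = 8.61e-05). Fosb followed at -4.76 (SE 0.66, edgeR adjusted p = 0.00132), from 82.2 ± 48.3 to 2.74 ± 0.431 CPM. These Fos partners fell further than the Jun side of AP-1, with Junb at -3.70 and Jun at -1.61 on the log2 scale, though the difference between members was not tested. Nr4a1 (-3.91), Ier2 (-3.88) and Egr1 (-3.83) formed a close middle group, and Atf3 (-2.55), Ier3 (-2.43) and Dusp1 (-1.72) fell less. Jun was no longer called when P0 Emcn- replicate 1 (edgeR adjusted p = 0.0554), P1 replicate 1 (0.0669) or P1 replicate 2 (0.0569) was left out. Ier2 lost its call without either P1 library (edgeR adjusted p = 0.0701 and 0.0556) and Ier3 without P1 replicate 1 (0.0552), which left 7 of 10. Beside this fall, 13 myeloid markers summed to 247 and 302 CPM at P0 Emcn- and 80.8 and 258 CPM at P1, the mesenchymal markers to 21123 and 16290.4 against 6014 and 6684 CPM, and mitochondrially encoded transcripts to 2.72% and 3.01% against 8.00% and 5.99% of counts. Their part in the result was not tested, and the batches (d and a against b and c) cannot be told apart from the passage.

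**Figure D2:**
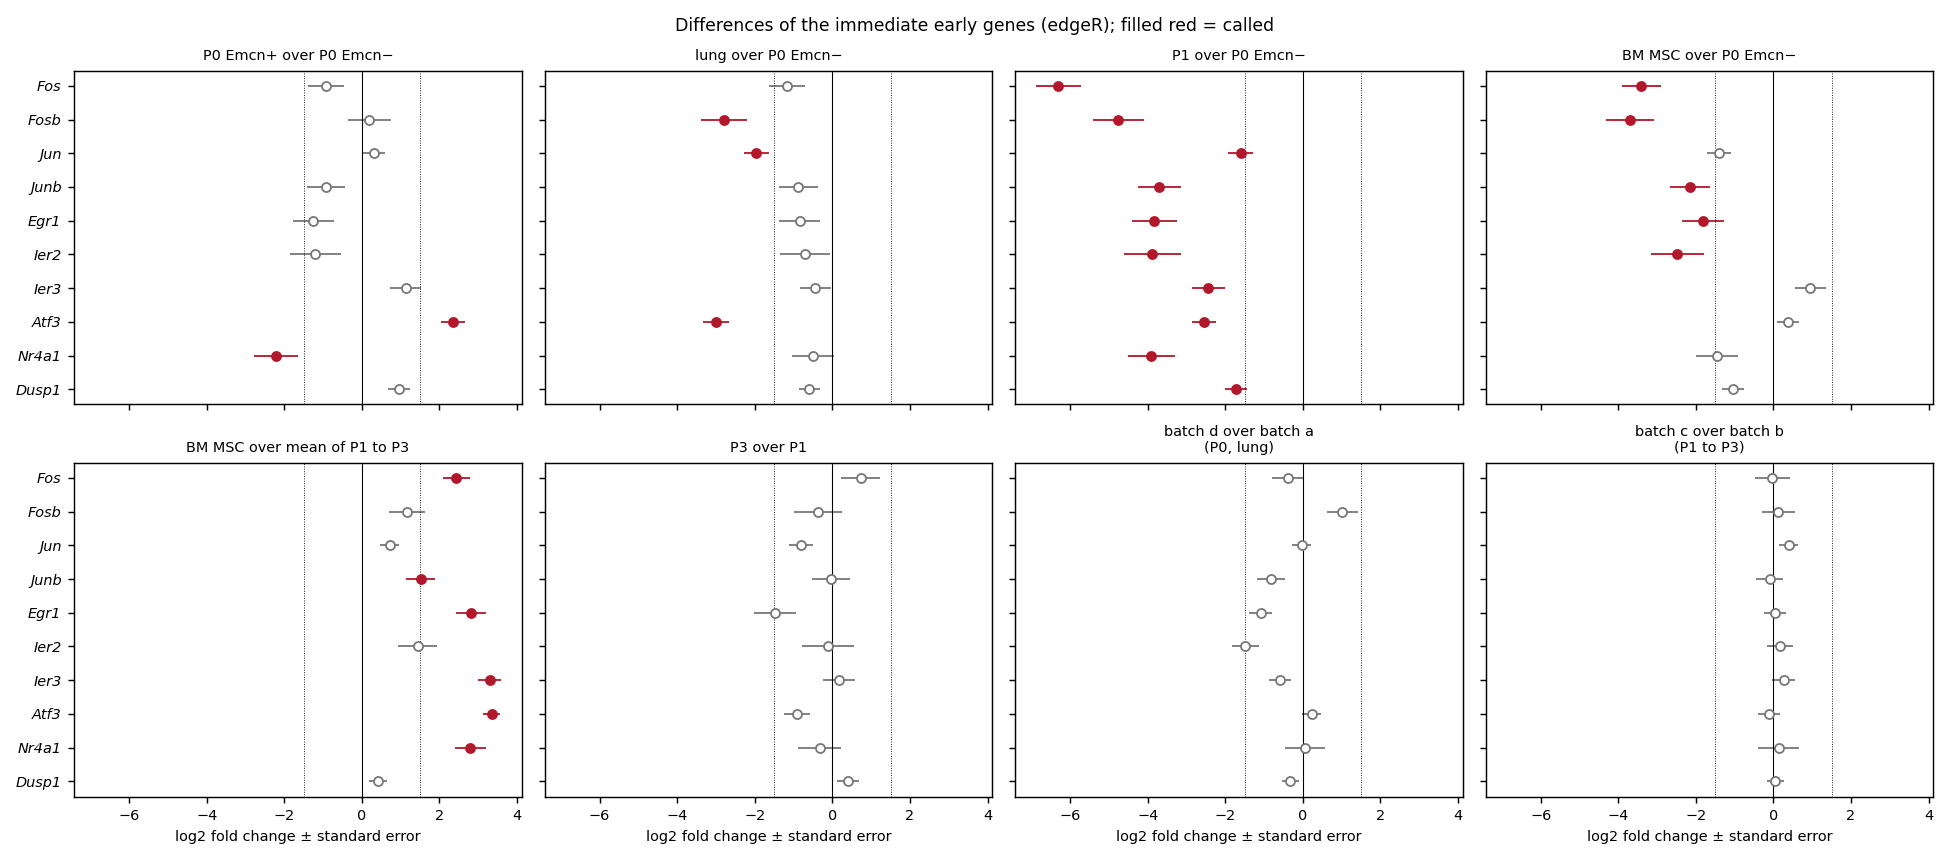
log2 fold change of each immediate early gene (x axis, with its standard error as a bar) in 8 comparisons, from edgeR; filled red points were called at an adjusted p under 0.05 and a log2 fold change beyond 1.5 (dotted lines). All 10 points are red and left of 0 for P1 over P0 Emcn-, and none is red for P3 over P1 or for the batch comparisons.

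From P1 to P3 the members stayed low, and no difference was called: 0 of 10 between P3 and P1 (edgeR), where 0.0773% of all genes were called higher and 0.144% lower. At an unadjusted p under 0.05 there were 3 members, Egr1 (log2 fold change -1.47, SE 0.54, edgeR adjusted p = 0.267), Atf3 (-0.91, edgeR adjusted p = 0.275) and Jun (-0.82, edgeR adjusted p = 0.286), all with lower values at P3, and DESeq2 called none. Over the 6 libraries of P1 to P3, 6 members spanned less than 2-fold, and the widest spans were 3.21-fold for Atf3, at 13 to 43 counts, and 3.01-fold for Egr1.

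The P4 library stood apart from these passages for most members. Its levels over the highest of the 6 libraries of P1 to P3 were 11.9 times for Fos, 11.0 times for Egr1, 6.93 times for Ier2, 5.54 times for Junb, 5.50 times for Nr4a1 and 3.42 times for Atf3. With 1 library this has no replicate check and no test, and the comparison was chosen after its values were seen. These 6 of 10 members were past a log2 ratio of 1.5, as were 36 of 19401 genes, 0.186%. Dusp1 was at 2.30 times, Ier3 at 1.52 and Fosb at 1.23, while Jun, at 0.758 times the highest, lay inside the P1 to P3 range. P4 shares batch b with replicate 1 of P1 to P3; against P3 of that batch the ratio was 33.2 for Egr1 and 11.9 for Fos. It thus separated genes of the same family: Fos from Fosb, and Junb from Jun. P4 held 5047 CPM of mesenchymal and 59.3 CPM of endothelial transcripts and 6.32% mitochondrial counts, within the 4139 to 6684 CPM, 44.7 to 70.0 CPM and 5.16% to 8.997% of P1 to P3. Its myeloid sum of 12.3 CPM was below the 15.6 to 258 CPM of P1 to P3 and the lowest of the 15 libraries; its part was not tested.

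Between the P0 populations, members differed in both directions, and 2 of 10 were called: Atf3 higher and Nr4a1 lower in P0 Emcn+ than in P0 Emcn-. Over all genes, 7.79% were called higher and 11.4% lower, so the members' share was close to the background. Atf3 was higher by 2.35 on the log2 scale (SE 0.30, edgeR adjusted p = 0.000222), at 2.22 within batch d and 2.52 within batch a. Nr4a1 was lower, at -2.21 (SE 0.56, edgeR adjusted p = 0.0113), but its within-batch ratios were -0.78 in d and -3.80 in a. In edgeR, Nr4a1 was no longer called when P0 Emcn+ replicate 2 was left out (log2 fold change -1.60 with an adjusted p of 0.0576), when P0 Emcn- replicate 2 was (-1.39, 0.0916), or with only the compared libraries (-2.22, 0.0818). Dusp1 passed the p limit at 0.96 (edgeR adjusted p = 0.0224) without reaching the fold limit, and Ier3 (1.14, edgeR adjusted p = 0.0517) reached neither limit. Dusp1, Ier3, Atf3, Nr4a1, Fos, Junb and Egr1 had no overlap between these populations, and the share of all genes without overlap is not given here. Fos, Junb, Egr1 and Ier2 had negative estimates from -0.92 to -1.25, and each was lower in P0 Emcn+ in both batches, with none called; leaving out P0 Emcn- replicate 1 made Egr1 a call (-1.72, edgeR adjusted p = 0.0374). The myeloid markers summed to 707 and 702 CPM in P0 Emcn+ cells against 247 and 302 CPM, and the endothelial markers differed as given above; their part was not tested.

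Lung cells had lower Atf3, Fosb and Jun than P0 Emcn- cells, 3 of 10 members, against 1.7% of all genes called lower and 2.13% higher. The log2 fold changes were -3.00 for Atf3 (SE 0.33, edgeR adjusted p = 0.00153), -2.80 for Fosb (SE 0.59, 0.0245) and -1.96 for Jun (SE 0.32, 0.00759), and each was negative within both shared batches. With only the 4 compared libraries none of the 3 was called (edgeR adjusted p = 0.0561, 0.0849 and 0.109). Fosb also lost its call without P0 Emcn- replicate 1 (edgeR adjusted p = 0.111), lung replicate 1 (0.162) or lung replicate 2 (0.0885). Without lung replicate 2, Fos (-2.27, edgeR adjusted p = 0.0131) and Junb (-2.10, 0.0215) were called as well. The other seven members had estimates from -1.17 to -0.44, and for Ier2, Ier3 and Nr4a1 the sign turned on which library was left out. The comparisons of lung, P1, BM MSC and P0 Emcn+ cells share the same P0 Emcn- libraries. Both lung libraries stood above every P1 to P3 library for 8 members, all but Jun and Atf3, and the share of all genes that did so is not given here. Myeloid markers summed to 25.5 and 23.4 CPM in lung against 247 and 302 CPM in P0 Emcn- cells, mesenchymal markers to 12827 and 14030.2 against 21123 and 16290.4 CPM, endothelial markers to 156 and 584 against 255 and 69.2 CPM, and mitochondrial counts to 5.60% and 3.26% against 2.72% and 3.01%; their part was not tested.

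For most members the BM MSC mean lay between those of P0 Emcn- and of P1 to P3; P4 was above the BM MSC mean for 6 members (Fos, Junb, Egr1, Ier2, Nr4a1, Dusp1). Against P0 Emcn-, 5 of 10 were called lower, with 7.45% of all genes lower and 11.3% higher. Fosb was at -3.69 (SE 0.62, edgeR adjusted p = 0.00169), Fos at -3.40 (SE 0.50, 0.000831), Ier2 at -2.47, Junb at -2.15 and Egr1 at -1.82 on the log2 scale. The median log2 fold change was -1.63 for the members and 0.01 for all genes. Jun, at -1.41, reached the fold limit only with the batch terms (-1.61, edgeR adjusted p = 0.00612) or without P0 Emcn- replicate 2 (-1.72, 0.00538), and Nr4a1 was called only without P0 Emcn- replicate 1 (-1.99, 0.0247). Ier3 (0.95) and Atf3 (0.38) had positive estimates and were not called. Without BM MSC replicate 1 the count was 2, as Junb (edgeR adjusted p = 0.0729), Egr1 (0.143) and Ier2 (0.100) lost their calls. Ier2 lost its call also without BM MSC replicate 2 (0.0763), and Egr1 and Ier2 did so without P0 Emcn- replicate 2 (edgeR adjusted p = 0.155 and 0.140) and with only the compared libraries (0.0798 and 0.0605). Mesenchymal markers summed to 19593 and 11032 CPM in BM MSC against 21123 and 16290.4 CPM in P0 Emcn- cells. Myeloid markers summed to 25.0 and 36.6 CPM in BM MSC against 247 and 302 CPM. Endothelial markers summed to 42.0 and 348 CPM against 255 and 69.2 CPM. Mitochondrial counts were at 3.36% and 4.13% against 2.72% and 3.01%. The part of these differences in the result was not tested.

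Against the mean of P1 to P3, 6 of 10 members were called higher in BM MSC, with 8.42% of all genes called higher and 5.81% lower. They were Atf3 (log2 fold change 3.35, SE 0.22, edgeR adjusted p = 1.13e-05), Ier3 (3.30, SE 0.30, 5.64e-05), Egr1 (2.81), Nr4a1 (2.79), Fos (2.43) and Junb (1.52). Junb, close to the fold limit, was not called without P3 replicate 2 (1.48, edgeR adjusted p = 0.0298) or without BM MSC replicate 2 (1.14, 0.142). Jun, at 0.72, passed the p limit alone (edgeR adjusted p = 0.0446). Within batch c, which holds both BM MSC libraries and 1 library of each passage, the BM MSC libraries were above all 3 passaged libraries for all 10 members, with log2 ratios of means from 0.46 for Dusp1 to 3.40 for Atf3. How many of all genes had such a gap is not given here. Both BM MSC comparisons use the same BM MSC libraries. Mesenchymal markers summed to 19593 and 11032 CPM in BM MSC against 4139 to 6684 CPM over P1 to P3, endothelial markers to 42.0 and 348 against 44.7 to 70.0 CPM, and mitochondrial counts to 3.36% and 4.13% against 5.16% to 8.997%; myeloid markers, at 25.0 and 36.6 CPM, were within the range of P1 to P3. Their part was not tested.

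Between libraries of different batches, no member was called: 0 of 10 for batch d against a, where 0.108% of all genes were higher and 0.0928% lower, and 0 of 10 for c against b, where 0.165% were higher and 0.129% lower. At an unadjusted p under 0.05, edgeR had 3 members for d against a and 0 for c against b. Those 3 were Ier2 (log2 fold change -1.48, SE 0.34, edgeR adjusted p = 0.143), Egr1 (-1.09, 0.179) and Fosb (1.02, 0.290), and DESeq2 called Ier2 (-1.52, adjusted p = 0.00101). Ier2 was called by edgeR without either P0 Emcn+ library (-2.07, adjusted p = 0.00154 each time), and Fosb without either lung library (1.69, edgeR adjusted p = 0.0214 and 0.0217). Under DESeq2, c against b had no member called.

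The members that differed between the libraries of a condition were not the same ones in each condition. In lung cells, replicate 2 was above replicate 1 for 9 of 10 members, 5.41-fold for Ier2, 3.78-fold for Junb, 3.51-fold for Egr1 and 3.38-fold for Fos, and 6 members differed by more than 1 in log2 CPM scaled by TMM factors, as did 15.1% of all genes; the folds given here are of CPM on the library total. Nr4a1 (1.05-fold) and Atf3 (0.967-fold) were level there. In P0 Emcn- 4 members passed that mark (20.8% of all genes), with Ier2 3.41-fold, Nr4a1 2.58-fold and Egr1 2.38-fold higher and Fosb lower (0.413-fold) in replicate 2. P0 Emcn+ had 2 such members (12.3% of all genes), Fosb at 0.239-fold and Nr4a1 at 0.318-fold. Nr4a1 thus went up from batch d to a in P0 Emcn- and down in P0 Emcn+; the difference was not tested. No member passed the mark in P1 (8.74% of all genes), P2 (9.40%), P3 (10.1%) or BM MSC (13.6%), the last a pair within 1 batch, where Nr4a1 was just under it but 2.09-fold higher in replicate 2 on the library total. The mean of the 10 differences was 1.16 in lung, 0.37 in P0 Emcn-, -0.49 in P0 Emcn+, 0.35 in BM MSC and between -0.06 and 0.20 at P1 to P3. P0 Emcn- replicate 2, the shallowest library, held the highest level of Fos, Junb, Egr1, Ier2 and Nr4a1 in the series. Mitochondrial counts were at 5.60% in lung replicate 1 and 3.26% in replicate 2, and the endothelial markers at 156 and 584 CPM; their part was not tested.

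**Figure D3:**
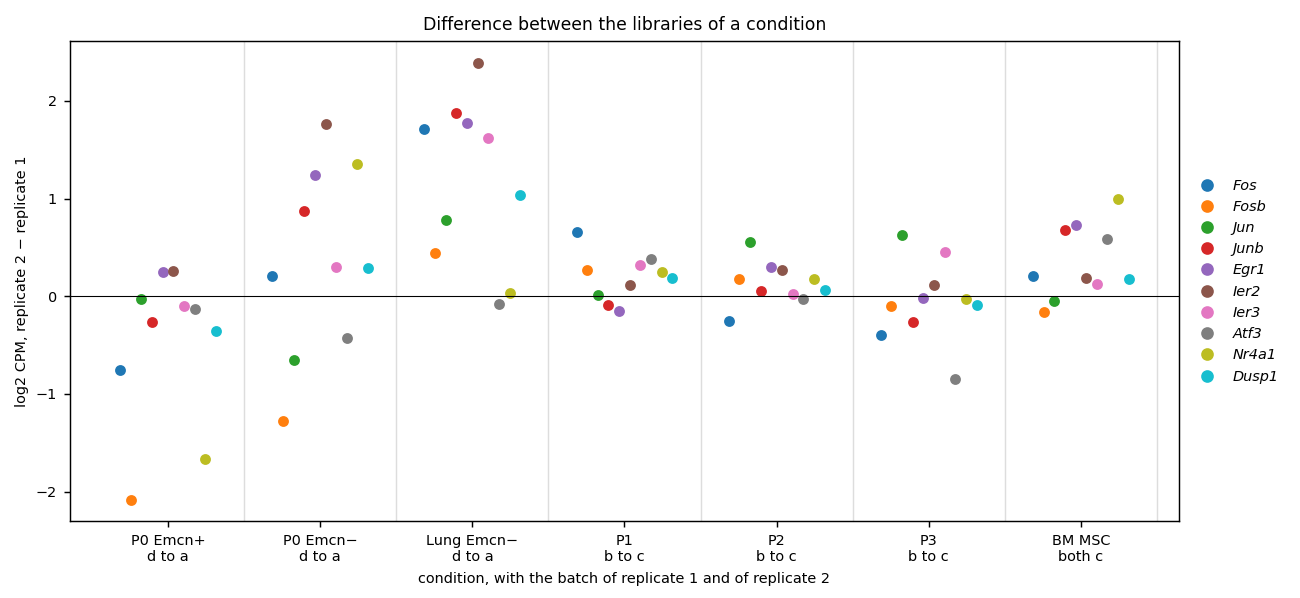
Difference in log2 CPM between replicate 2 and replicate 1 of each condition (y axis) for the 10 immediate early genes, coloured by gene, with the batches of both replicates under each condition. Points spread from -2.08 to 2.39 in P0 and lung, mostly above 0 in lung, and stay within 1.00 of 0 at P1 to P3 and in BM MSC.

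Beyond the members, 26 other early response genes (Fosl1, Egr2, Zfp36, Ptgs2 and the like) moved in part with them. At P1 against P0 Emcn-, 10 of the 26 were called, all lower, with 3.07% of all genes lower and 5.77% higher. Their median log2 fold change was -0.92. Zfp36, which binds AU-rich mRNAs of early genes and speeds their decay, went from 231 and 609 CPM to 34.2 and 38.4 CPM (log2 fold change -3.37, edgeR adjusted p = 0.00555). Egr3 (-3.27, edgeR adjusted p = 0.0285) and Egr2 (-3.18, 0.00516), relatives of Egr1, were next. At P4, Arc, Egr2, Egr3 and Btg2 were past a log2 ratio of 1.5 over the highest P1 to P3 library, 4 of 26, against 0.186% of all genes. Egr2 was at 44.1 CPM against at most 6.37 CPM. Between P3 and P1, Ccn2, a matrix-associated target of serum response factor and YAP, was the one called, higher at P3 (log2 fold change 3.09, edgeR adjusted p = 0.0294), at 22.4 and 41.9 CPM at P1 and 240.1 and 293 CPM at P3. Over all genes, 0.0773% were called higher and 0.144% lower at P3.

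Between the P0 populations, 11 of the 26 were called, 6 higher and 5 lower in P0 Emcn+, with 7.79% of all genes higher and 11.4% lower. Egr3 (-6.53), Egr2 (-5.81) and Arc (-5.44), a neuronal activity gene, were nearly absent from P0 Emcn+; Egr2 was at 0.665 and 1.35 CPM there and at 42.2 and 72.9 CPM in P0 Emcn- cells. Egr1 itself was at 275 and 332 CPM in P0 Emcn+ cells. In lung against P0 Emcn- none of the 26 was called, or 1 with batch terms, with 1.7% of all genes called lower and 2.13% higher. In BM MSC, 7 were called against P0 Emcn- (3 higher, 4 lower, with 11.3% and 7.45% of all genes), among them Ccn2 (3.76), Zfp36 (-3.71) and Dusp2, which was at 0 and 0.0304 CPM in BM MSC and 0.478 and 0.504 CPM in P0 Emcn- cells, and 9 against P1 to P3 (8 higher, 1 lower, with 8.42% and 5.81% of all genes), led by Ptgs2 (5.19), Ccn2 (4.30) and Nr4a3 (3.90), on the log2 scale. Ptgs2, the inducible cyclooxygenase, was at 57.5 and 37.3 CPM in BM MSC and at 0.430 to 4.29 CPM over P1 to P3. Between batches d and a, Arc was the one of the 26 called (log2 fold change -1.61, edgeR adjusted p = 0.0473), and none was called between c and b. Over all genes, 0.108% were called higher and 0.0928% lower in d than in a, and 0.165% higher and 0.129% lower in c than in b.

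Between pairs of conditions, 1 gene of the MAP kinase and serum response factor list was called. The values are mRNA levels and do not measure the activity of a kinase or factor. Of 17 genes of the MAP kinase and serum response factor pathway (Srf, Elk1, Creb1 and others), none was called at P1 against P0 Emcn- (median log2 fold change -0.17). Over all genes, 3.07% were called lower and 5.77% higher there, so a list this short would have few or no calls at that share. In all tested pairs of conditions or batches, the only call was Elk3, an ETS partner of serum response factor, higher in the Emcn+ than in the Emcn- cells of P0 (log2 fold change 2.20, edgeR adjusted p = 0.000139), at 332 and 234 CPM against 76.1 and 49.6 CPM. None of the 17 was past the P4 mark. Of 10 heat shock genes, none was called at P1 (median -0.08), between the P0 populations, in lung, between P3 and P1 or between batches, and none was past the P4 mark. For so short a list, few or no calls are near the share over all genes. Hspa1b, Hspa1a and Hsph1, chaperones induced by heat and misfolded protein, were called higher in BM MSC than in P0 Emcn- (2.73, 2.66 and 1.90 on the log2 scale) and than in P1 to P3 (3.01, 2.65 and 1.68). Over all genes, 11.3% and 8.42% were called higher in these comparisons. The test over all 8 conditions, which called 63.5% of all genes, called 24 of the 26, 12 of the 17 and 5 of the 10, the last 2 counts being near that share. Hspa1a and Hspa1b are near-identical copies whose reads could be split between them.

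**Figure D4:**
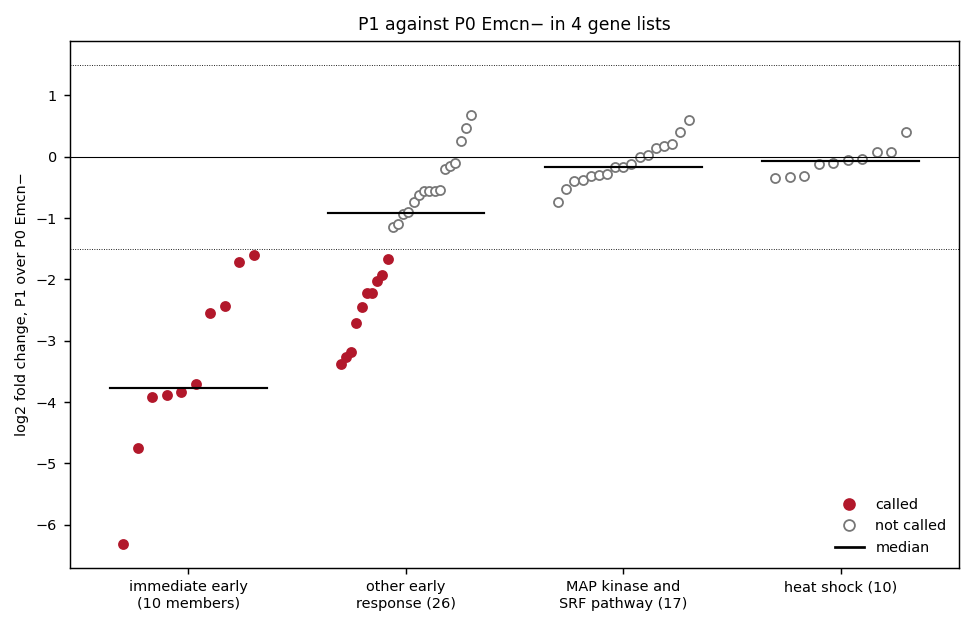
log2 fold change of P1 over P0 Emcn- (y axis) for each gene of 4 lists, sorted within a list; red points were called, open points were not, and black lines are medians. All 10 immediate early genes and 10 of 26 other early response genes are red and below 0, and no gene of the MAP kinase and SRF pathway or heat shock lists is red. Over all genes, 3.07% were called lower and 5.77% higher.

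Outside the lists, the genes whose log2 CPM was most like the mean of the members over the 15 libraries, among 9777 genes with a mean of at least 10 CPM, were Nfkbiz (r = 0.944), Ppp1r15b (0.936), Srsf6 (0.924), Hnrnpd (0.919), Polr3d, Trib1, Kctd3, Sf1, Brd2 and Usp36 (0.906). Nfkbiz, an inducible nuclear IkB protein, was at 83.3 to 118 CPM over the P0 libraries, 35.3 and 60.3 CPM in lung, 13.2 to 15.9 CPM over P1 to P3 and 28.8 CPM at P4. Srsf6, Hnrnpd and Sf1, which act in mRNA splicing and processing, had a narrower range; Srsf6 was at 195 to 242 CPM over the P0 libraries and 87.0 to 106 CPM over P1 to P3, with 102 CPM at P4. Over the 7 differences between the libraries of a condition, the closest were Arfgef2 (r = 0.985), Mark4, Ranbp10, Rnf145, Fam210b, Prdm15, Pnrc1, 2900026A02Rik, Gm12918 and Gm14440 (0.958). Their levels over all libraries but P4 did not all follow the members. There r was -0.802 for Gm12918, -0.678 for Gm14440, -0.607 for Arfgef2 and -0.044 for Fam210b, and 0.252 to 0.896 for the rest. Gm12918 was at 0 to 5.95 CPM in P0 and lung libraries and at 192 to 452 CPM elsewhere. These correlations are descriptions over few points that share batches.

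Where genes overlap a member, their reads could be shared, since strand use in the counting is not stated. Prdx2 overlaps Junb and was at 108 to 178 CPM, and Ergic1 overlaps Dusp1 and was at 104 to 307 CPM. Junos, antisense to Jun, was at 0.553 to 2.09 CPM, far below Jun. Gm24748, within Atf3, was at 0 in every library, and Gm8225, within Dusp1, was at most at 0.431 CPM.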

How the data were processed

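Total RNA from 15 cell samples was sequenced as KAPA RNA HyperPrep libraries. The study states a sort before sequencing for P0, lung and BM MSC cells, and states none at harvest for P1 to P4. By the study's methods and processing notes, the authors mapped reads to GRCm38 with STAR, estimated transcript abundance with Salmon and merged genes with tximport. The deposited values are whole-number counts per gene; how they were rounded is not given in the sources used here. Counts ran from 9914620 to 39718807 per library, and 3 counts equal 0.0755 to 0.303 CPM; such limits cover counting error only. The labels name 4 batches and the methods 3. The 8 rows without a symbol were left out of naming only.

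CPM were computed on library totals. All 15 libraries were fitted together in edgeR 4.0.16 (R 4.3.3; quasi-likelihood test, TMM factors, filterByExpr with a minimum count of 10, 19401 of 44674 genes, 7 residual degrees of freedom and 3.07 prior ones), with conditions as groups and Benjamini-Hochberg adjustment over all genes. A gene was called where its adjusted p was under 0.05 and its log2 fold change beyond 1.5 in either direction. Batch differences came from the fit with 2 centred batch terms (d against a, c against b), which was also the alternative with the replicate block. Replicate numbers pair libraries, since the labels put those of one number in one batch: deviations correlated at 0.139 to 0.209 among P0 and lung and 0.354 to 0.451 among P1 to P3. Replicates of a condition differed far beyond what counting allows (chi-square of 42.8 to 141 for each degree of freedom). On simulated counts for P1 against P0 Emcn- (17841 genes), 97 of 100 genes changed 4-fold and 100 of 100 changed 8-fold were recovered, with 2 false calls; for batch d against a (17868 genes) these were 95, 100 and 1. The simulated counts had the same dispersion for every gene, and no batch or condition effect beyond the changes set. Such rates therefore need not hold for the real libraries.

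Members and lists were chosen with earlier results of these data known. All members are named, and of each other list its called genes, at most the 3 with the largest absolute log2 fold change per comparison. The likeness rule took the 10 highest Pearson correlations of log2 CPM among genes with a mean of at least 10 CPM. Alternatives were DESeq2 1.42.0, other size factors, other filters, no fold limit, batch terms, fewer libraries and TMM-scaled CPM. Gene positions are those of GENCODE M21, and promoter windows those of RefSeq GRCm38.p6. Windows of 8 of 10 members were used, without Egr1 and Ier2, and member windows on chromosome 18 were left out.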

Additional observations from a re-analysis of the deposited data

How the results depend on the processing

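With the replicate block (batch terms), the count of members called was unchanged in each of the 7 results that could be refitted except BM MSC against P0 Emcn-, where it was 6 in place of 5, so it moved no count by over 1.5 times. The terms compare d with a and c with b. They cannot adjust for batch between P0 or lung libraries and passaged or BM MSC ones. DESeq2, other size factors, other filters and no fold limit kept each count of members within 1.5 times, except DESeq2 for batch d against a, which called 1 in place of 0. Fits of the compared libraries alone called 1 in place of 2 between the P0 populations, 0 in place of 3 for lung and 3 in place of 5 for BM MSC against P0 Emcn-; such fits hold fewer libraries and 2 residual degrees of freedom.

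Leaving out each library in turn gave counts of 1 to 3 between the P0 populations, 2 to 4 for lung, 7 to 10 for P1, 2 to 6 for BM MSC against P0 Emcn-, 5 to 6 for BM MSC against P1 to P3, 0 for P3 against P1 and for batch c against b, 0 to 1 for batch d against a, and 10 for all conditions. A condition left with 1 library is then assumed to vary like the others. Signs turned for uncalled log2 fold changes, whose ranges were as follows. Between batches c and b they were -0.43 to 0.19 for Atf3, -0.014 to 0.12 for Dusp1, -0.086 to 0.15 for Egr1 and -0.33 to 0.18 for Fos. Between batches d and a they were -0.66 to 0.036 for Dusp1, -0.95 to 0.27 for Fos, -0.38 to 0.34 for Jun and -0.69 to 0.79 for Nr4a1. They were -1.18 to 0.99 for Fosb between the P0 populations. In lung they were -2.35 to 0.41 for Ier2, -1.47 to 0.16 for Ier3 and -1.02 to 0.32 for Nr4a1. In P3 against P1 they were -0.076 to 0.38 for Ier3 and -0.17 to 0.10 for Junb. The cause was not tested.

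Scaling CPM by TMM factors, chosen for P4 after seeing the data, left 6 members past the log2 ratio of 1.5 and moved the count over all genes from 36 to 39. With 2 libraries in most conditions and 1 at P4, and Atf3 at 13 counts in the lowest library, small differences were not detectable.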

Other observations

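Among the 36 genes whose P4 level was past a log2 ratio of 1.5 over the highest P1 to P3 library, a comparison chosen after its values were seen and without a test, were 6 members and 4 genes of the other early response list. Csrnp1, a nuclear protein induced by axin, was also among them, at 25.5 CPM at P4 against at most 5.85 CPM over P1 to P3. Of the others, 4 were picked after their values were seen, 3 Ifi genes and Rsad2. Ifi206 was at 55.2 CPM at P4 against at most 16.7 CPM, Ifi208 at 15.8 against 2.66 CPM, Ifi213 at 12.0 against 2.96 CPM, and Rsad2, an antiviral radical SAM enzyme, at 8.50 against 1.92 CPM. In P0 Emcn- these 4 were at most at 4.63, 2.62, 2.12 and 3.15 CPM, so P4 was above P0 Emcn- for them, unlike for the 6 members, each of which was lower at P4 than in the higher P0 Emcn- library. This did not set them apart from all early genes. P4 was also above both P0 Emcn- libraries for Arc (16.2 against at most 12.0 CPM), Btg2 (184 against 156 CPM) and Csrnp1 (25.5 against 13.7 CPM), though not for Egr2 and Egr3. Cxcl10 and Ccl5, also among the 36, were at 0.962 and 0.165 CPM at P4, below both P0 Emcn- libraries. Another 6 genes of the 36 were at 0 in all P1 to P3 libraries and at most at 2.94 CPM at P4.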
